A study of Mus musculus with 16 samples.

Results

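The regions described here were acetylated promoters at which neither RNA polymerase nor the fusion oncoprotein was called in mouse clear cell sarcoma (CCS). They were H3K27ac peaks that overlapped the window within 3 kb of an annotated transcription start site (TSS) and shared no base with an RNAPOL2 peak or a V5 peak. The rule was met by 3885 of 27552 H3K27ac peaks. It was met by 23.9% (Wilson 95% interval 23.2 to 24.5) of the 16276 H3K27ac peaks at promoters. The share depended on the thresholds of the lists, and was 4.76% among the upper 50% of the H3K27ac peaks by score and 37.3% when only the upper 50% of the RNAPOL2 and V5 peaks counted. These regions covered 4.45 Mb of mm10 and are called unaccompanied promoter peaks below. They were chosen by the overlaps of the 3 lists, so their H3K27ac scores, widths and clustering, and their distances to RNAPOL2 and V5, are descriptions and carry no test.

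The tumours expressed EWSR1::ATF1 (EA1), the human fusion cDNA with a V5 tag and an IRES-EGFP reporter. It had been placed in the mouse Rosa26 locus behind a loxP-flanked stop and was switched on by injection of TATCre into the hindlimb of mice aged 4 weeks. The series has 16 tumour samples, all of the genotype EWSR1::ATF1, of which 4 were V5, 4 pol2 (RNAPOL2), 4 H3K27ac and 4 input. No tissue without the fusion was among them, and the age at which each tumour was taken is not given in the sources used here. The cells that recombine after such an injection are not fixed by a lineage-specific promoter, and whole tumours hold stromal, vascular and immune cells in addition to tumour cells. A peak held by few cells and a weak peak held by all cells cannot be told apart in these lists.

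The data consist of 1 peak list per antibody. Values per sample, replicate error and depth per sample are therefore not in hand. Peaks are the units of every comparison. Neighbouring peaks are not independent, so the p-values describe the lists and not the spread between animals, and the Wilson intervals cover counting error only.

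Acetylation of lysine 27 of histone H3 is deposited by the acetyltransferases CBP and p300 and marks active promoters and enhancers. The polymerase antibody recognises phosphorylated RNA polymerase II, the form engaged in transcription. Many mammalian promoters, mostly those of widely expressed genes, lie in CpG islands, stretches in which the dinucleotide CpG has escaped the loss it has undergone elsewhere in the genome. Promoters of genes restricted to a cell type more often lack a CpG island.

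Both kinds of promoter were present among the unaccompanied peaks, and they are shown first because CpG content divided these peaks. A peak was called CpG-rich when its central 500 bp had a GC content of at least 50% and an observed to expected CpG ratio of at least 0.6. The sequences below are the 150 bases upstream of an annotated TSS (GRCm38, 5′ to 3′ on the strand of the gene, from the RefSeq copy of that assembly). Each belongs to a coding gene without RNAPOL2 or V5 at any of its promoters. They are from the highest-scored peaks over such a TSS in which no annotated exon interrupts the 150 bases. Capitals mark every CpG. The 4 with a CpG-rich peak were the following.
Exo1 (chr1:175880431-175880580, plus strand): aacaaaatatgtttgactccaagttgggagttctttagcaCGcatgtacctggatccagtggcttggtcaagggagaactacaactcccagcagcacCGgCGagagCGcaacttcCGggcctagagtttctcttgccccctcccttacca
Shisal1 (chr15:84446611-84446760, minus strand): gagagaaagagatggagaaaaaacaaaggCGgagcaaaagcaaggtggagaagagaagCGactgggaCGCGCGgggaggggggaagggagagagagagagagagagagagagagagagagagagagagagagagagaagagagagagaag
BC052040 (chr2:115581566-115581715, plus strand): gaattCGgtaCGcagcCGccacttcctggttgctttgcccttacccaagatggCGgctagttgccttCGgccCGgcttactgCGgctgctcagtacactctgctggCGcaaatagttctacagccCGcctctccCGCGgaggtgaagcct
BC005561 (chr5:104508202-104508351, plus strand): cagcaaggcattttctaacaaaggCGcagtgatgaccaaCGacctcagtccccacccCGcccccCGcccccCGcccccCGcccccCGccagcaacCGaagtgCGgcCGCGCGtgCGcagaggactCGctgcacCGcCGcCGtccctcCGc

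Of the 4 without a CpG-rich peak, the following 3 are shown.
Inpp5d (chr1:87621524-87621673, plus strand): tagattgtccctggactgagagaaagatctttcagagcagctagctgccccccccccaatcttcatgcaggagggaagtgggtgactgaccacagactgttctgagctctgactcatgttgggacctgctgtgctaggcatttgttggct
Mtrf1 (chr14:79397622-79397771, plus strand): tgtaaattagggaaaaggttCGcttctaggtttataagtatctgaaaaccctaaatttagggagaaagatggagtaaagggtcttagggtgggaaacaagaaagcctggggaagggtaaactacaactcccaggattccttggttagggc
Arhgap30 (chr1:171388804-171388953, plus strand): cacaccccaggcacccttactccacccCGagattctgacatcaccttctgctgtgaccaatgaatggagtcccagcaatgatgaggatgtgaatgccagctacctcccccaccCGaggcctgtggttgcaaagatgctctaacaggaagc

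The CpG-rich set held 5 CpGs at Exo1, 5 at Shisal1, 11 at BC052040 and 18 at BC005561. The other set held 0 at Inpp5d, 1 at Mtrf1 and 2 at Arhgap30. The stretch that is not shown held more CpGs than those of Exo1 and Shisal1, so CpG counts in these 150 bases overlapped between the classes. The class was set on the middle of the peak and not on the bases printed here. The stretch upstream of Mtrf1 also held the TATA box core TATAAA, on its reverse strand.

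Unaccompanied promoter peaks had low H3K27ac scores. The deposited H3K27ac score, a whole number whose scale is not stated, had a median of 91 with quartiles of 61 and 150. Promoter peaks with RNAPOL2 and no V5, of which there were 8482, had a median of 659 with quartiles of 333 and 1267. The 3909 promoter peaks with V5 had a median of 1151, but the 661 of them without RNAPOL2 had a median of 140. Those 661 had a median CpG ratio of 0.231 (0.280 for unaccompanied peaks), and 33.7% (48.8%) covered a TSS. Of them, 47.2% (40.9%) lay in regions of at least 3 H3K27ac peaks less than 12 kb apart. They were wider, with a median of 1460 bp (930 bp), and 31.5% (13.7%) scored at or above the median of the whole H3K27ac list. No test was made of these values. The 6263 distal H3K27ac peaks with neither factor were the nearest class by score, with a median of 82. The whole H3K27ac list had a median of 212, and 86.3% of the unaccompanied promoter peaks (3354) lay below it. The 531 at or above it (13.7%) compare with 85.9% of the promoter peaks with RNAPOL2. None of the unaccompanied peaks reached the upper decile of the list, which began at 1713.

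The share of acetylated promoters that were unaccompanied fell along the score. It was 81.1% (79.1 to 82.9) in the lowest decile of the promoter peaks by score, which ran from 21 to 74. It was 50.2% in the third decile and 7.99% in the fifth. Such peaks numbered 3 in the seventh decile, 3 in the eighth and 0 in the 2 highest, where the Wilson interval reaches 0.235% in the uppermost. RNAPOL2 without V5 was called at 11% of the lowest decile and at 77.7% of the sixth. Low scores and missing polymerase calls occurred together, and how much of the class reflects the thresholds of the 3 lists was not tested.

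**Figure D1:**
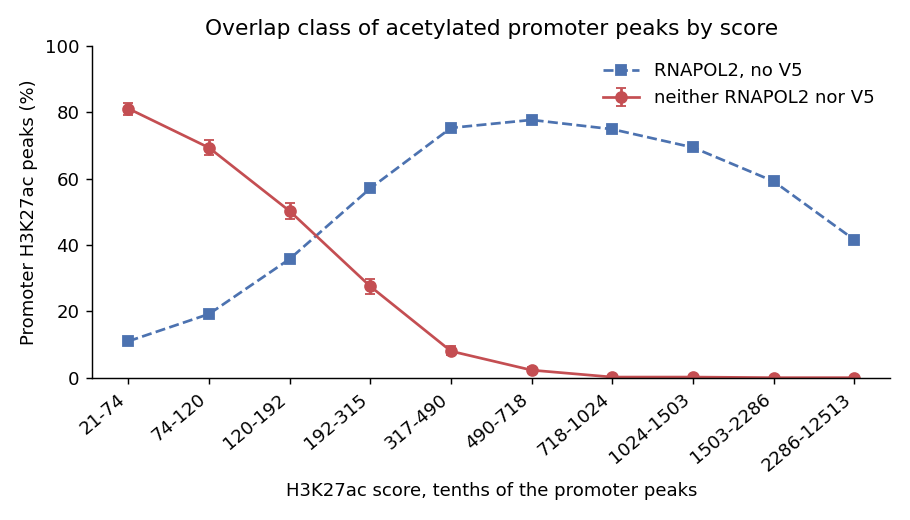
Share of acetylated promoter peaks (vertical axis, percent) in each decile of these peaks by H3K27ac score (horizontal axis, from lowest to highest), for peaks with neither RNAPOL2 nor V5 (circles, with Wilson 95% intervals as bars) and for peaks with RNAPOL2 and no V5 (squares). The share with neither drops from 81.1% in the lowest decile to 0 in the highest, and the share with RNAPOL2 reaches 77.7% in the sixth decile.

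The peaks were also narrow. Their median width was 930 bp, with quartiles of 680 and 1380 bp, beside 1520 bp for promoter peaks with RNAPOL2, 2110 bp for those with V5 and 950 bp for distal peaks with neither. The nearest RNAPOL2 peak was a median of 20950 bp away, with quartiles of 5460 and 65630 bp. The nearest V5 peak was a median of 57680 bp away. Both were at least 3 kb away for 3112 of the peaks (80.1%).

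Few peaks lay close to the border of the rule. Gaps of at most 100 bp to RNAPOL2 were found at 6 peaks and to V5 at 7. At Gemin7, which encodes a subunit of the SMN complex, the peak (score 57) touched an RNAPOL2 peak with a gap of 0 bp. Those at Hcls1 (score 285) and Egfl7 (score 40) had gaps of 10 and 20 bp. Toward V5, the smallest gaps were 0 bp at Ctr9 (score 65), 0 bp at Mdga1 (score 82) and 20 bp at Gm37435 (score 41). Just outside the rule, the peaks at Kcnn3 (score 41) and Nup88 (score 82) shared 10 bp with an RNAPOL2 peak. Only 9 promoter peaks with RNAPOL2 and no V5 shared 100 bp or less.

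The position of the peaks at genes was examined next. Unaccompanied peaks and promoter peaks with RNAPOL2 were held to the same 3 kb window, so the annotation did not separate them and their shares were tested. Transcribing polymerase starts at a TSS and the peaks with RNAPOL2 were wider, so the direction for TSS cover was likely beforehand. A TSS was covered by 1897 unaccompanied promoter peaks (48.8%, 47.3 to 50.4) and by 7852 promoter peaks with RNAPOL2 (92.6%), an odds ratio of 0.0766 (95% interval 0.0691 to 0.0848, Fisher's exact test). Of the others, 881 (22.7%) lay upstream of the nearest TSS and 1107 (28.5%) downstream of it, compared with 3.31% and 4.11% among peaks with RNAPOL2. The middle of an unaccompanied peak lay a median of 571 bp from the nearest TSS, compared with 163 bp. Unaccompanied peaks that covered a TSS had a median score of 120 and a median width of 980 bp, and those that covered none had 74 and 890 bp. Within 5 strata of width the odds ratio was 0.106, and within 5 strata of H3K27ac score it was 0.395 (0.348 to 0.449).

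**Figure D2:**
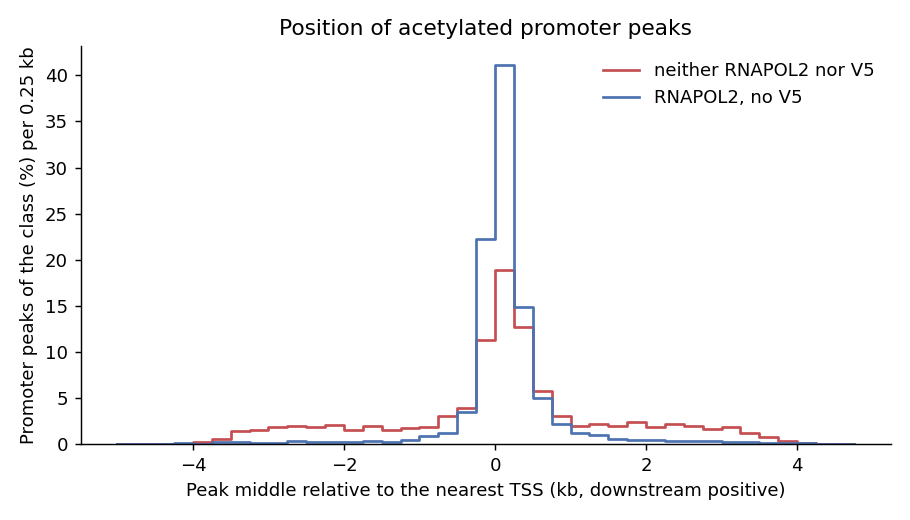
Position of the middle of each promoter peak relative to the nearest TSS (horizontal axis, kb, negative values upstream) against the share of the class (vertical axis, percent). The middle lies a median of 571 bp from the TSS for peaks with neither RNAPOL2 nor V5 and 163 bp for peaks with RNAPOL2 and no V5.

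Protein-coding genes were less often the gene at hand. A coding TSS lay within 3 kb of 2984 unaccompanied peaks (76.8%) and of 95% of the promoter peaks with RNAPOL2 (odds ratio 0.173, 0.153 to 0.196, adjusted exact p = 1.92e-186). Within strata of score the odds ratio was 0.385 (0.326 to 0.454). The remaining 901 peaks (23.2%) had noncoding TSSs only. The nearest of these was a lincRNA at 314 peaks, an antisense transcript at 139, a processed pseudogene at 121 and a miRNA at 44. Of the 901 peaks, 32.7% covered a TSS and 6.22% were CpG-rich.

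CpG content differed between the unaccompanied promoters and both reference classes. A CpG-rich centre was found at 697 of them (17.9%), at 67.9% of the promoter peaks with RNAPOL2 and at 1.85% of the distal peaks with neither. The odds ratio was 0.103 (0.0941 to 0.113) against the former and 11.6 (9.47 to 14.2, adjusted exact p = 1.92e-186) against the latter. In the rule, distal peaks with neither differ from the unaccompanied promoters only by their distance to a TSS. Since many promoters lie in CpG islands, the direction of the second ratio was likely beforehand. Among the upper 50% of the H3K27ac peaks by score, the odds ratio against distal peaks was 4.54. The median number of CpGs in the central 500 bp was 9 for unaccompanied promoters, 35 for promoters with RNAPOL2 and 7 for distal peaks, and the median GC content was 52.8%, 62.6% and 50%. Within strata of score the odds ratio against RNAPOL2 promoters was 0.229 (0.203 to 0.259). Among scores up to 74, 13.6% of 1513 unaccompanied peaks and 30.3% of 218 peaks with RNAPOL2 were CpG-rich. The shares were 20.1% of 1292 and 44.5% of 472 between 75 and 140, 21% of 941 and 58.3% of 1505 between 141 and 334, and 23% of 135 and 69.9% of 3253 between 335 and 951. Only 4 unaccompanied peaks had higher scores.

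**Figure D3:**
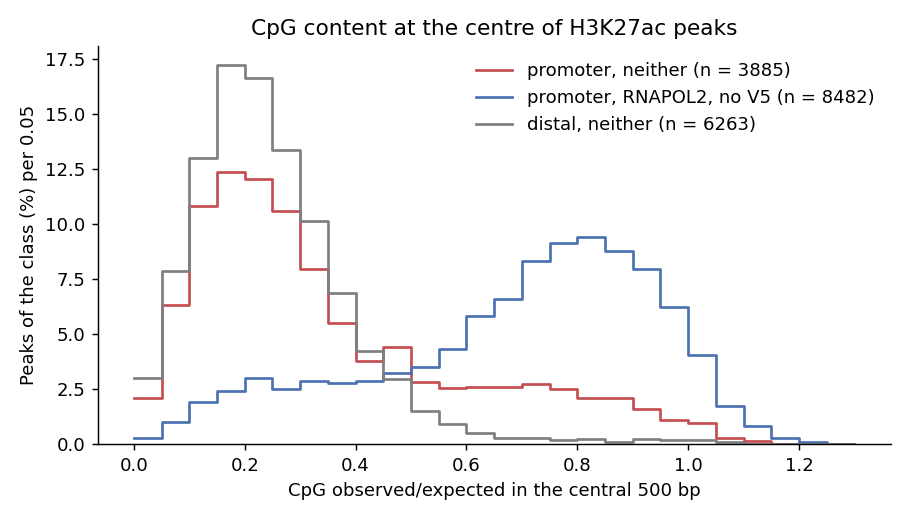
Observed to expected CpG ratio of the central 500 bp (horizontal axis, no unit) against the share of each class (vertical axis, percent). Promoter peaks with neither RNAPOL2 nor V5 have a median ratio of 0.280, near the 0.226 of distal peaks with neither and below the 0.742 of promoter peaks with RNAPOL2.

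CpG-rich and other unaccompanied promoters differed in more than their base composition. The following values are descriptions. Of the 697 CpG-rich peaks, 82.4% covered a TSS and 92.0% had a coding TSS in their window, compared with 41.5% and 73.5% of the other 3188. The nearest RNAPOL2 peak was a median of 58260 bp from a CpG-rich peak and 16600 bp from the others. Within regions made by stitching H3K27ac peaks less than 12 kb apart, 9.61% of the CpG-rich peaks and 47.7% of the others lay in a region of at least 3 peaks. Median scores were close, at 110 and 91.

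CpG content and TSS cover also varied with the distance to the polymerase. Among the 154 peaks less than 1 kb from an RNAPOL2 peak, 7.79% were CpG-rich and 17.5% covered a TSS. From 1 to 10 kb away (1214 peaks) the shares were 7.41% and 35.0%, and from 10 to 100 kb (1861 peaks) they were 18.5% and 53.4%. The 656 peaks at 100 kb or more were CpG-rich in 38.3% and covered a TSS in 68.9%. Of all unaccompanied promoter peaks, 1574 (40.5%) shared a stitched region with an H3K27ac peak that did overlap RNAPOL2, and 855 (22.0%) with one that overlapped V5. The region of the remaining 2151 (55.4%) held neither, and 37.6% of the peaks stood alone within 12 kb. Among all H3K27ac peaks 39.7% stood alone and 39.9% lay in regions of at least 3 peaks, near the 37.6% and 40.9% of the unaccompanied promoters. The shares were 53.8% and 28.0% for promoter peaks with RNAPOL2 and no V5, and 30.3% and 48.9% for distal peaks with neither.

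Sequence motifs were counted in the central 500 bp of each peak on both strands. The AP1 motif TGAGTCA, bound by FOS and JUN dimers, was found in 477 unaccompanied promoters (12.3%), in 4.85% of promoters with RNAPOL2 and in 17.5% of distal peaks with neither. All H3K27ac peaks gave 11.1%. The odds ratio was 2.75 (2.39 to 3.15, adjusted exact p = 9.09e-46) against promoters with RNAPOL2 and 0.662 (0.590 to 0.743, adjusted exact p = 2.73e-12) against distal peaks. Of the CpG-rich unaccompanied peaks 3.59% held the motif, and of the others 14.2%. Among peaks without a CpG-rich centre the shares were 14.2% for unaccompanied promoters and 8.34% for promoters with RNAPOL2 (odds ratio 1.82, 1.53 to 2.15, adjusted exact p = 8.27e-12), and within strata of score the odds ratio was 2.35 (1.91 to 2.89).

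The TATA box core TATAAA lay between the same classes. It was present in 494 unaccompanied promoters (12.7%), 6.52% of promoters with RNAPOL2 and 18% of distal peaks, with odds ratios of 2.09 (1.84 to 2.37, adjusted exact p = 2.12e-28) and 0.663 (0.592 to 0.743, adjusted exact p = 1.78e-12). All H3K27ac peaks gave 13.8%. Among peaks without a CpG-rich centre the difference from RNAPOL2 promoters was small (14.7% and 12.5%, odds ratio 1.2, adjusted exact p = 0.0243). Within strata of score the odds ratio was 1.31 (1.09 to 1.58), and among the upper 50% of the H3K27ac peaks by score the call was lost (1.37, adjusted exact p = 0.0927).

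The canonical ATF/CREB motif TGACGTCA, the site of the DNA-binding domain that EA1 keeps from ATF1, was rare. It was found in 32 unaccompanied promoters (0.824%), in 0.684% of promoters with RNAPOL2 and in 0.479% of distal peaks, while all H3K27ac peaks gave 1.76%. All 3 of these classes were defined by the absence of V5. The difference from RNAPOL2 promoters was not detectable (odds ratio 1.21, 0.782 to 1.86, adjusted exact p = 0.450). The difference from distal peaks (odds ratio 1.73, 1.05 to 2.84, adjusted exact p = 0.0401) was lost with a promoter window of 1 kb (odds ratio 1.54) and under 5 other settings, and turned to 0.122 among the upper 50% of the H3K27ac peaks by score.

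The ETS and NRF1 motifs, which are common in CpG-island promoters, were less frequent than at promoters with RNAPOL2. The ETS core CCGGAAG was found in 239 unaccompanied promoters (6.15%), 18.9% of promoters with RNAPOL2 (odds ratio 0.282, 0.244 to 0.324, adjusted exact p = 5.13e-86) and 3.69% of distal peaks (1.71, 1.42 to 2.06, adjusted exact p = 2.27e-08). All H3K27ac peaks gave 10.2%. Among peaks without a CpG-rich centre it was still less frequent than at RNAPOL2 promoters, at 5.58% and 8.89% (odds ratio 0.606). The palindromic core of the motif of NRF1, an activator of nuclear genes for mitochondrial proteins, was found in 5 unaccompanied promoters (0.129%) and in 1.57% of promoters with RNAPOL2 (odds ratio 0.0809, 0.0331 to 0.198, adjusted exact p = 4.96e-16). In all H3K27ac peaks it was found in 0.722%. Its difference from distal peaks was not detectable (odds ratio 1.15, 0.365 to 3.63, adjusted exact p = 0.776). Without CpG-rich centres it remained in 4 unaccompanied promoters and in 8 with RNAPOL2, and the difference was no longer detectable (odds ratio 0.426).

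The E-box CACGTG, bound by MYC, MITF and USF factors, was found in 299 unaccompanied promoters (7.70%), 9.84% of promoters with RNAPOL2 (odds ratio 0.764, 0.665 to 0.877, adjusted exact p = 1.55e-04) and 6.32% of distal peaks (1.24, 1.06 to 1.44, adjusted exact p = 0.0110). All H3K27ac peaks gave 8.30%. Neither difference passed the test among peaks without a CpG-rich centre (odds ratios 0.923 and 1.13), and the first was 1.01 among the upper 50% of the H3K27ac peaks by score.

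**Figure D4:**
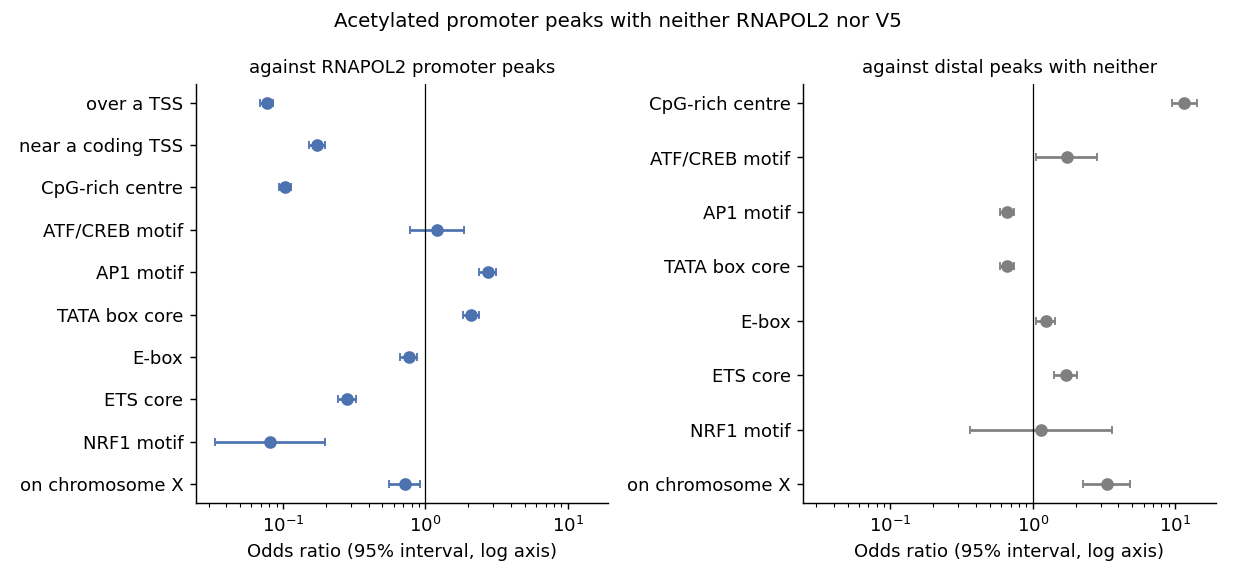
Odds ratios with 95% intervals (horizontal log axis) for features of promoter peaks with neither RNAPOL2 nor V5, against promoter peaks with RNAPOL2 and no V5 (left) and against distal peaks with neither (right). CpG-rich centres have an odds ratio of 0.103 on the left and 11.6 on the right, the AP1 motif has 2.75 and 0.662, and the vertical line marks an odds ratio of 1.

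On chromosome X lay 81 unaccompanied promoter peaks (2.08%), compared with 2.89% of the promoters with RNAPOL2 (odds ratio 0.716, 0.555 to 0.923, adjusted exact p = 0.0111) and 0.639% of distal peaks with neither (3.31, 2.26 to 4.85, adjusted exact p = 2.82e-10). The first difference was lost with a promoter window of 1 kb (odds ratio 0.908) and turned to 1.21 among the upper 50% of the H3K27ac peaks by score. It held within strata of width (0.567) and of score (0.642, 0.468 to 0.880) and among peaks without a CpG-rich centre (1.47% and 3.01%). The X-linked peaks were CpG-rich in 42.0% and covered a TSS in 79.0%, beside 17.5% and 48.2% on the autosomes. Unaccompanied peaks made up from 19.0% (chromosome 13) to 27.5% (chromosome 6) of the promoter peaks of an autosome and 22.9% on X. On chromosome Y they were 7 of 10.

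The peaks were then assigned to genes. Of 21938 coding genes, 2555 (11.6%, 11.2 to 12.1) had an unaccompanied H3K27ac peak within 3 kb of a TSS. Of these genes, 1259 (49.3%, 47.3 to 51.2) had RNAPOL2 at another position within their promoter windows, at the same TSS or at another. V5 was found there at 431 (16.9%). With a promoter window of 1 kb the share with RNAPOL2 was 35.4%. Shares with RNAPOL2 or V5 over all coding genes, at promoters or in gene bodies, are not given here, so these values have no background. Genes with RNAPOL2 had a median of 6 distinct TSSs, compared with 3 for the genes with neither and 3 for all coding genes. Neither RNAPOL2 nor V5 lay in any promoter window of 1256 genes (49.2%, 47.2 to 51.1), which is 5.73% of all coding genes. Of these 1256 genes, 969 (77.1%) had a TSS covered by the acetylated peak. RNAPOL2 lay elsewhere in the body of 83 of them (6.61%), and 1173 had no RNAPOL2 peak in the gene at all. Among the 12846 coding genes with any acetylated promoter, 1287 (10%) had neither factor.

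The highest-scored unaccompanied peaks lay at unlike loci. The first (score 1264, chromosome 12, 113423981 to 113426020) lay over the miRNA gene Gm24022 and within 3 kb of Ighm and Ighj4, the constant region of the immunoglobulin heavy chain mu and a joining segment. Its central 500 bp had a GC content of 65.0% and 0 CpGs. The second (score 1244, chromosome 1, 175880331 to 175881150) covered the TSS of Exo1, an exonuclease of mismatch repair, had 43 CpGs in its centre, and lay 187250 bp from the nearest RNAPOL2 peak. The lincRNAs Gm7292 (score 1185) and Gm28942 (score 1024) followed. Next were Shisal1 (747), the lincRNA 1700063D05Rik (742), Inpp5d (688), Mtrf1 (688), Ston1 (674) and Tfeb (657). The peak of Ston1 covered no TSS, with its middle 2556 bp downstream of the nearest one.

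Genes of blood cells were among the 10 strongest peaks over the TSS of a coding gene with neither factor. Inpp5d encodes SHIP1, an inositol phosphatase of haematopoietic cells. Its peak (chromosome 1, 87619891 to 87623600) was 3710 bp wide, had a CpG ratio of 0.143, held TGAGTCA and belonged to a stitched region of 7 H3K27ac peaks, with the nearest RNAPOL2 peak 132110 bp away. Laptm5, a lysosomal membrane protein of leukocytes, had a peak with a score of 588 and a width of 3830 bp (chromosome 4, 130912841 to 130916670). The peak of Arhgap30 had a score of 616.

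The others included genes of general cell functions. Mtrf1, a mitochondrial release factor of translation, had a peak of 860 bp, and Eif1ax, an X-linked translation initiation factor, had a score of 616 and lay 115930 bp from RNAPOL2. BC052040 (630) and BC005561 (602) were also among the 10. The peak of BC052040 lay 483420 bp from the nearest RNAPOL2 peak.

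The widest peaks had scores from 237 to 437, above the upper quartile of 150. That of Wdr25 was 14230 bp wide (score 407, chromosome 12, 108902731 to 108916960) and that of Pgs1, an enzyme of cardiolipin synthesis, 7260 bp (score 285). C130050O18Rik (6040 bp), Fam53b (5810 bp) and the antisense gene Gm38204 at Fcgr2b (5530 bp) followed. All 5 had RNAPOL2 between 1360 and 8060 bp away and none had a CpG-rich centre.

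Marker genes of the cell types that a hindlimb tumour could hold were looked up, with the share of all coding genes (11.6% with an unaccompanied peak, 5.73% with such a peak and neither factor at any promoter) as background. An acetylated promoter was found at 58.6% of all coding genes (12846), of which 10% had neither factor at any promoter. The lists are short, and their shares are given with no test. Of 20 macrophage and myeloid genes, 17 had an acetylated promoter, 10 (50%) had an unaccompanied peak and 8 (40%) had neither factor. Of 15 endothelial genes, 11 were acetylated, 6 (40%) had an unaccompanied peak and 3 (20%) had neither. Of 12 fibroblast genes the counts were 10, 4 and 3, and of 12 pericyte and smooth muscle genes 5, 3 and 2. T and NK cell genes gave 7, 4 and 2 of 15, adipocyte genes 4, 3 and 2 of 10, and Schwann cell genes 4, 2 and 2 of 10. Neutrophil genes gave 1, 1 and 1 of 10. Of 10 B and plasma cell genes 1 was acetylated and 0 had an unaccompanied peak.

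**Figure D5:**
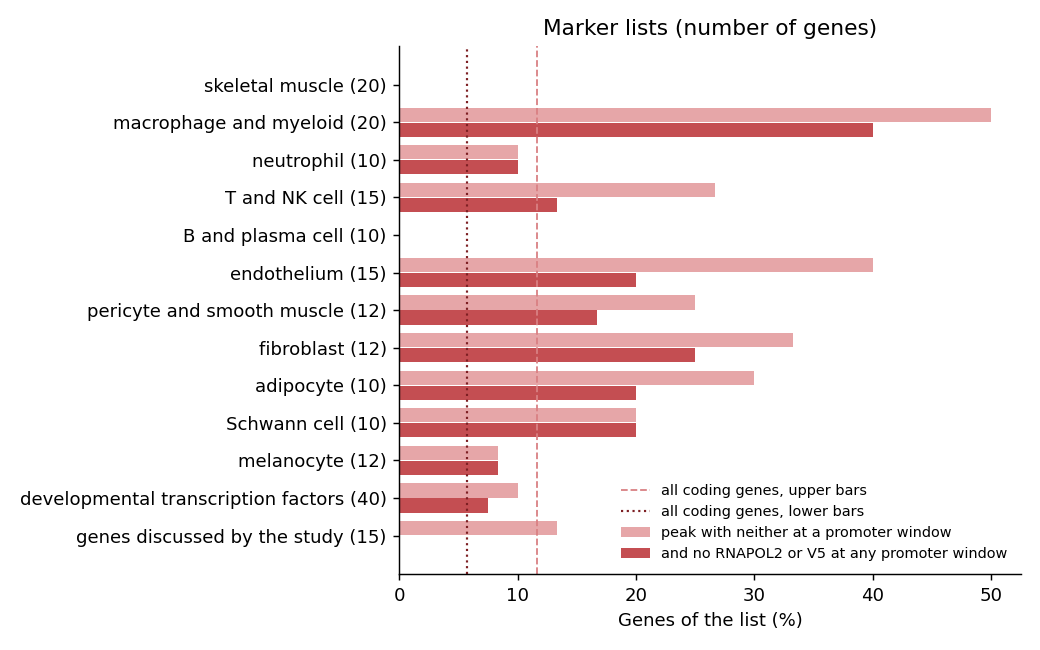
Percent of the genes of each list (horizontal axis) with an unaccompanied H3K27ac peak at a promoter and with such a peak but neither RNAPOL2 nor V5 at any promoter, by list (vertical axis), with dashed and dotted lines at the shares of all coding genes (11.6% and 5.73%). Macrophage and myeloid genes reach 50% and 40%, and skeletal muscle genes and B and plasma cell genes are at 0.

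Myeloid genes with neither factor included receptors and effectors of the mature cells. After Laptm5 (588), the highest scores were those of Csf1r (334), the receptor of macrophage colony-stimulating factor, Aif1 (261), which encodes the microglial and macrophage protein IBA1, and Ptprc (172), the leukocyte antigen CD45. Ctss (140), a lysosomal cysteine protease, Lyz2 (91), lysozyme, Mrc1 (65), the mannose receptor CD206, and Adgre1 (49), which encodes F4/80, had lower scores. RNAPOL2 lay in the bodies of Csf1r and Laptm5, outside their promoter windows. The highest-scored peaks of Csf1r and Mrc1 held TGAGTCA and those of the other myeloid genes with neither factor did not, beside 12.3% of all unaccompanied peaks. RNAPOL2 was present at the promoters of the other acetylated genes of the list, which were Cd68, Cd14, Tyrobp, Fcer1g, Spi1, C1qa, C1qb, C1qc and Fcgr3. The receptor Csf3r, of the neutrophil list, had a score of 171.

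RNAPOL2 was present at a promoter of 8 of the 11 acetylated endothelial genes (Kdr, Flt1, Egfl7, Eng, Sox17, Sox18, Erg and Esam) and of 7 of the 10 acetylated fibroblast genes (Col1a1, Col1a2, Col3a1, Thy1, Dpt, Twist1 and Prrx1). The other 3 genes of each list had neither factor, beside the 10% of all acetylated coding genes. Pecam1, the endothelial adhesion molecule CD31, had 4 unaccompanied peaks, the highest with a score of 346 (chromosome 11, 106657841 to 106661490), and RNAPOL2 in the gene body. Robo4 (65) and Cdh5 (52), which encodes VE-cadherin, had 1 peak each. Pdgfrb (110) and Pdgfra (65), the receptors for platelet-derived growth factor of pericytes and fibroblasts, had 2 peaks each. The matrix genes Fbln1 (160) and Dcn (101), the channel gene Kcnj8 (41) of pericytes, and the adipocyte genes Pparg (101) and Lpl (34) were in the same class. So were Cd4 (101) and Cd3e (34) of T cells. The Schwann cell genes with neither factor were Mbp (160), a protein of myelin, and S100b (57).

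Melanocyte and developmental genes had unaccompanied peaks at shares near the background, with 8.33% and 7.50% of the lists having such a peak and neither factor. CCS is known for melanocytic features, and Mitf and Pmel were acetylated with RNAPOL2 present. Ednrb (65), the endothelin receptor of melanoblasts, was the only gene of the 12 melanocyte genes with an unaccompanied peak and neither factor. No peak of any list lay at the promoters of 8 of the 12, among them Tyr, Tyrp1, Mlana and Sox10. Dct had a V5 peak at its promoter and neither H3K27ac nor RNAPOL2. Whether these genes were expressed in the tumours cannot be read from peak lists. Of 40 developmental transcription factors 15 were acetylated (58.6% of all coding genes were), and Dlx5 (84), Hand2 (57) and Gata3 (49) had neither factor. Of 15 genes that the study discusses, 13 were acetylated and all 13 had RNAPOL2. Runx1 and Fam43a also had an unaccompanied peak, with scores of 203 and 140. Of 20 skeletal muscle genes, 2 were acetylated, again beside 58.6% of all coding genes, and 0 had an unaccompanied peak.

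CpG content again varied among the highest-scored peaks of the 27 list genes with neither factor. Those of Pparg, Lpl, Pdgfra, Dlx5, Hand2 and Ednrb had CpG-rich centres, beside 17.9% of all unaccompanied peaks. The highest-scored peak of each myeloid, T cell and endothelial gene lacked one. So did those of Csf3r, Fbln1, Dcn, Mbp, S100b, Pdgfrb, Kcnj8 and Gata3. Which cells of the tumours carried the acetylation was not tested.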

How the data were processed

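The authors performed ChIP-seq with antibodies against V5, RNAPOL2 and H3K27ac. Reads were aligned to mm10 with BWA-MEM 0.7.10-r789, duplicates were removed, peaks were called with MACS2 2.2.6 against input (broad option for H3K27ac), and denylisted peaks were discarded. The deposited peak lists, 1 per antibody, give starts, ends and a score of unstated scale. The labels name 4 samples per antibody, the methods more for V5 and RNAPOL2. The samples behind each list, and whether they were pooled, are not given in the sources used here. Depth per sample is not in the lists.

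TSSs came from GENCODE vM21 (55413 genes, 141730 transcripts). An overlap was at least 1 shared bp. Differences in shares were tested with two-sided Fisher's exact tests, with odds ratio intervals on the log scale, over 18 tests adjusted by Benjamini-Hochberg, of which 16 passed 0.05. Where p fell below double precision only the interval is given. Mantel-Haenszel odds ratios gave strata. The scripts were tested on simulated data and used pysam 0.24.0, scipy 1.17.1, statsmodels 0.14.6, pandas 2.3.3, numpy 2.4.6 and matplotlib 3.10.9 under Python 3.11.15.

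The members, gene lists and alternatives were chosen with earlier results of these data known. Regions named were the 10 highest-scored and 5 widest, and the 10 highest-scored over the TSS of a coding gene with neither factor. Also named were 3 just inside each overlap limit, 3 just outside that of RNAPOL2, and the list genes with neither factor. A few regions that these rules select are not reported here.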

Additional observations from a re-analysis of the deposited data

How the results depend on the processing

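No paired analysis was possible because the lists hold no values per sample, and no replicate could be left out for the same reason. Of the values recomputed under alternatives, 135 were counted as unchanged. For tests this means the same direction and call, whatever the size, and for counts a change of less than 1.5 times, such as 2678 unaccompanied peaks with a window of 1 kb. Among them were all odds ratios for TSS cover, coding TSSs, CpG-rich centres, TGAGTCA and CCGGAAG. The rest depended on the settings, and the cause was not tested. The share of acetylated promoters that were unaccompanied moved from 23.9% to 18.8% with a window of 1 kb, 20.7% with coding TSSs only, 19.1% at 3 kb or more from both factors, 4.76% (531 peaks) among the upper 50% of the H3K27ac peaks, and 37.3% (6063 peaks) with the upper 50% of the RNAPOL2 and V5 peaks. The share of their genes with RNAPOL2 at another promoter position was 35.4%, 36.3%, 41.3% and 37.5% with the 1 kb window, at 3 kb or more, with the upper H3K27ac peaks and with the upper RNAPOL2 and V5 peaks. The odds ratio of chromosome X against RNAPOL2 promoters was 0.908, 0.854 and 0.830 under the first 3, no longer past the threshold, and turned to 1.21 and 1.10 under the last 2. That of TGACGTCA against distal peaks lost its call at 1.54, 1.32 and 1.60 under the first 3, at 1.41 with the stronger RNAPOL2 and V5 peaks, at 1.48 in the central 300 bp and at 1.67 without CpG-rich centres, and turned to 0.122 among the stronger H3K27ac peaks. Against RNAPOL2 promoters it turned to 0.132 and 0.942 under the last 2 and to 0.691 within strata of score. Among the stronger H3K27ac peaks TATAAA lost its call against RNAPOL2 promoters (1.37), CACGTG turned to 1.01 and the NRF1 motif against distal peaks to 0.369, which became 2.81 and passed with the stronger RNAPOL2 and V5 peaks. CACGTG against distal peaks lost its call in the central 300 bp (1.19). Without CpG-rich centres, CACGTG lost both calls (0.923 and 1.13) and the NRF1 motif lost its call against RNAPOL2 promoters (0.426). The strata of score and the peaks without CpG-rich centres were chosen after seeing the data. The absence of a peak at the authors' threshold is not the absence of polymerase or fusion. The methods name an approximate depth common to the libraries, but the lists carry no read counts from which a limit at a promoter could be set.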
